A study of Homo sapiens with 6 samples.

Results

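Oxidative phosphorylation is carried out by 5 protein complexes of the inner mitochondrial membrane. Complex I oxidises NADH, complex II oxidises succinate, complex III passes the electrons from ubiquinol to cytochrome c, complex IV passes them on to oxygen, and complex V is the ATP synthase that uses the resulting proton gradient. Most of their subunits are encoded in the nucleus and imported, whereas some core subunits of complexes I, III, IV and V are encoded in mitochondrial DNA. The nuclear genes were taken by symbol: the NDUFA, NDUFB, NDUFC, NDUFS and NDUFV genes, SDHA to SDHD, the UQCR genes, the COX5 to COX8 subunit genes and the ATP5 genes with a single subunit letter. The rule found 80 genes among the 56303 genes of the count table, of which 37 belonged to complex I, 4 to complex II, 8 to complex III, 14 to complex IV and 17 to complex V. It used no measured value.

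The libraries came from SW480, an established human colorectal cancer cell line. The shCtrl group (labelled wild type) was infected with a lentivirus carrying a non-silencing short hairpin RNA, and the shMORC2 group (labelled MORC2 knockdown) with a lentivirus carrying a hairpin against MORC2, a chromatin-remodelling ATPase. Both populations were selected with puromycin, the methods call such cells stable clonal lines, and 1 hairpin was compared with 1 control, so other differences between the populations and the effect of the knockdown cannot be told apart. Each group had 3 libraries from replicate experiments. They held 42092664 to 43434425 counts, and 7.04% to 8.90% of those lay in genes of the mitochondrial chromosome. The epithelial markers KRT8, KRT18 and EPCAM were abundant in both groups. Of the 11 markers listed for leukocytes, endothelium, muscle and fibroblasts, PTPRC, CD3E, CDH5, MYH2, MYH7 and COL3A1 had mean counts from 0.667 to 5.83 per library, ACTA1, PDGFRB, COL1A1 and PECAM1 had 12.2, 83.2, 420 and 713 and did not pass the test, and CD68 had 2475 and rose by 1.27 (adjusted p = 0.000296, edgeR). PECAM1 was called higher with the replicate number as a block. The part of these markers in the results was not tested.

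MORC2 itself (chr22:30925130-30968298, GRCh38) was measured at 46.1, 46.4 and 48.8 CPM in shCtrl replicates 1 to 3 and 35, 29.3 and 27.2 CPM in shMORC2, where CPM are counts scaled to the library total and its composition. The groups did not overlap. The log2 fold change, here always shMORC2 over shCtrl, was -0.63 ± 0.10 (SE, adjusted p = 0.000216) by the quasi-likelihood test of edgeR across all 21005 genes with enough counts, which is a 0.647-fold level.

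Of the 80 nuclear genes of oxidative phosphorylation, 75 had enough counts to be tested, 50 rose, 6 fell and 19 did not pass an adjusted p of 0.05. Over all 21005 genes tested, 19.9% rose and 19.6% fell. The median log2 fold change of the 75 members was 0.41, against -0.01 for all genes. When the trend of each library with coding length was removed, an alternative added after seeing the data, 33 rose and 11 fell, with a median of 0.18, against 19.7% and 18.2% of all genes in that fit. In the fit on group alone 7 members changed by 2-fold or more. In 50 members all 3 shMORC2 libraries lay above all 3 shCtrl libraries and in 10 all 3 lay below, where 25.1% of all genes tested lay above and 25.1% below. The 7 with changes of at least 2-fold all rose and were NDUFB4, UQCR10, UQCRH, COX6B2, ATP5G3, ATP5I and ATP5J2. The 6 that fell were NDUFA9, SDHD, UQCRC2, UQCRFS1, ATP5B and ATP5C1. In bulk RNA, fewer cells of a kind and less RNA per cell cannot be told apart.

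**Figure D1:**
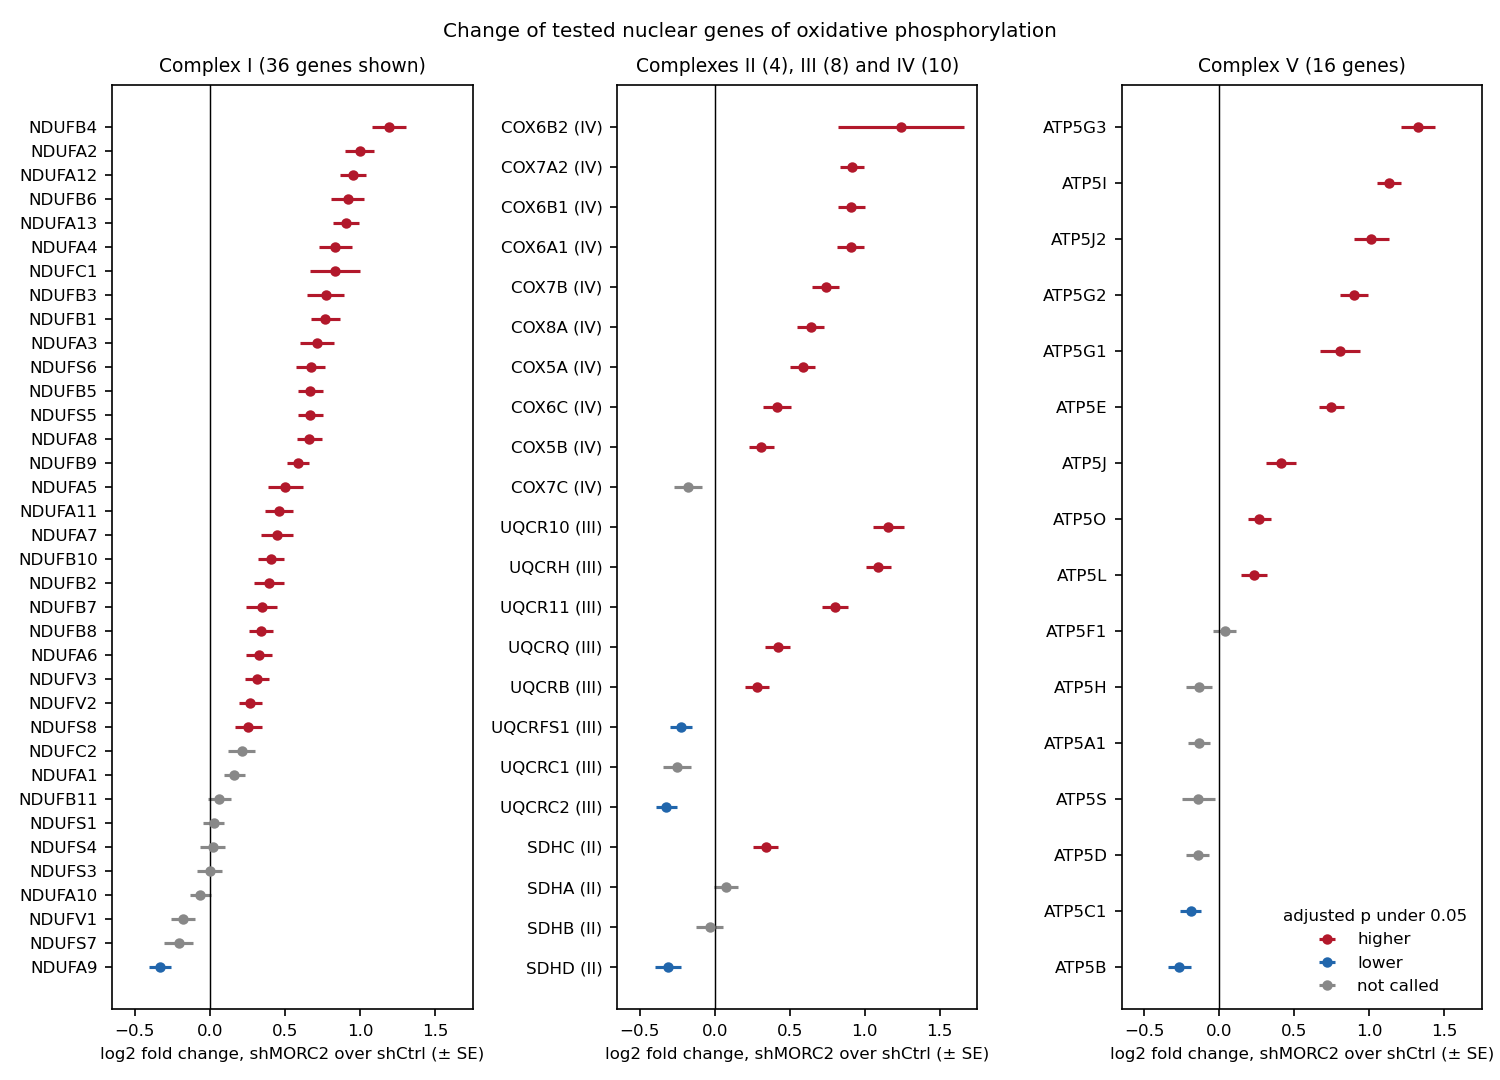
The log2 fold change of each tested member but 1, shMORC2 over shCtrl, is plotted as a point with its standard error as a bar, in panels for complex I, complexes II to IV and complex V. Red points rose (50 genes), blue points fell (6) and grey points did not pass an adjusted p of 0.05 (18). In every complex the points span both sides of 0.

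The number of calls moved with single libraries and with the fit. The control library shCtrl replicate 2 was the lowest of the 3 controls for 57 of the 75 members, and the median member lay 0.10 below the control mean there on the log2 scale, 0.04 above it in replicate 1 and 0.07 above it in replicate 3. The same median was 0.30, 0.42 and 0.43 in the shMORC2 libraries 1, 2 and 3, so these did not overlap with the controls. Without shCtrl replicate 2, 43 members rose and 4 fell, and the median log2 fold change was 0.33. Of the 50 members that rose, 41 did so whichever of the 6 libraries was left out, and of the 6 that fell 2 did so, NDUFA9 and UQCRC2. The others of the 50 were ATP5L, ATP5O, COX5B, COX6B2, NDUFA6, NDUFB7, NDUFS8, NDUFV2 and UQCRB. Without shCtrl replicate 3, 3 members fell. With the replicate number as a block, 52 rose and 10 fell, against 24.4% and 24.5% of all genes in that fit. The members added as lower by the block were NDUFS7, NDUFV1, UQCRC1 and COX7C, and those added as higher were NDUFA1 and NDUFC2.

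The promoters are shown because members that rose and members that fell shared motifs. RefSeq promoter windows (GRCh38.p14, 250 bases before to 50 bases after the start) were matched to 64 of the 80 members by symbol. These members had 76 windows, and a member was counted when any of its windows matched. The shares of all windows are per window, so the units differ and members with several windows had more chances of a match. The binding motif of nuclear respiratory factor 1 (NRF1), an activator of respiratory chain genes, was found on either strand in 16 of those 64 members (25%) and in 5.78% of all 35116 windows. The members with a match were 9 of 41 that rose, 4 of 5 that fell, 2 of 15 that did not pass the test and the untested COX8C. Below, 30 bases around a match are given 5′ to 3′ on the strand of the gene, with the match in capitals and 1 base of the motif left free, for 4 members that rose and the 4 with a match that fell. They lie at chr3:120596263-120596292 on the plus strand (NDUFB4), chr22:29767351-29767380 on the plus strand (UQCR10), chr12:95003794-95003823 on the minus strand (NDUFA12), chr4:674476-674505 on the minus strand (ATP5I), chr12:4649024-4649053 on the plus strand (NDUFA9), chr19:29213163-29213192 on the minus strand (UQCRFS1), chr11:112086753-112086782 on the plus strand (SDHD) and chr10:7788145-7788174 on the plus strand (ATP5C1).
NDUFB4: ctctgctaacGCGCAGGCGCacttcctgaa
UQCR10: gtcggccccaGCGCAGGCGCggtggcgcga
NDUFA12: acctagctctGCGCACGCGCagagccacca
ATP5I: cgcagcaactGCGCAGGCGCagccgatgat
NDUFA9: ttcttggttaGCGCTTGCGCagacaggcga
UQCRFS1: gcgcctcctcGCGCCTGCGCcgtggttgga
SDHD: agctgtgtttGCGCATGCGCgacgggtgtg
ATP5C1: gggagcttcgGCGCATGCGCgctgaggcct

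The windows were also searched on both strands for other motifs, with members again counted by gene and the background by window. CCGGAAG, bound by ETS factors such as GABPA, was found in 19 of 64 members and 10.3% of all windows, and AAGATGGC, bound by YY1, in 12 of 64 and 2.89%. TCAAGGTCA, bound by oestrogen-related receptors, was found in 1 member and 0.353% of all windows. GGGCGG (the GC box) was found in 39 members and 45.0% of all windows, and CCAAT in 23 members and 34.6%. By call, CCGGAAG was found in 12 of 41 members that rose, 1 of 5 that fell and 6 of 15 not called. In the same order the counts were 6, 1 and 5 for AAGATGGC and 25, 2 and 12 for GGGCGG. They were 18, 1 and 2 for CCAAT, and the member with TCAAGGTCA fell. In the 22199 windows of protein-coding genes the shares were 7.39% for the NRF1 motif, 12.8% for CCGGAAG, 3.53% for AAGATGGC, 0.243% for TCAAGGTCA, 56.3% for GGGCGG and 34.7% for CCAAT, so that the members' shares of GGGCGG and CCAAT, 60.9% and 35.9%, were near them. The letters of the NRF1 motif and of the GC box are both rich in G and C. These matches are letters in a window and were not measured as bound sites.

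Complex I is the largest of the complexes, with a set of core subunits that carry the flavin and iron-sulfur clusters and a shell of accessory subunits around them. All 37 of its members were tested, 26 rose, 1 fell and 10 did not pass the test, with a median log2 fold change of 0.41. With the coding length trend removed 18 rose and 3 fell, with a median of 0.23. In the fit on group alone accessory subunits made up 24 of the 26 that rose. Of the 30 accessory members, which include NDUFA4 by its name, 24 rose, with a median of 0.54. Of the 7 core members 2 rose, with a median of 0.02. The median coding length was 385.5 bases in the accessory members and 792 bases in the core members.

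The largest change in complex I was that of NDUFB4 (chr3:120596309-120602500), an accessory subunit of the membrane arm. Its level was 17.2, 13.1 and 17.4 CPM in shCtrl and 34.1, 35 and 39.7 CPM in shMORC2. Every shMORC2 library lay above every control, with shCtrl replicate 2 the lowest, and the log2 fold change was 1.19 ± 0.11 (SE, adjusted p = 5.13e-06). NDUFB4 has 12 pseudogenes by name in the table, which together had a mean of 4 counts per library in shCtrl and 11.3 in shMORC2, 0.688% of the count of NDUFB4 over the 6 libraries. NDUFA2, an accessory subunit of the matrix arm, was measured at 19.2, 16.7 and 19 CPM in shCtrl and 33.2, 36.2 and 40.1 CPM in shMORC2 and changed by 0.997 ± 0.10 (SE, adjusted p = 5.49e-06). NDUFA12, also of the matrix arm, was measured at 56.4, 45.4 and 53.5 CPM in shCtrl and 99.3, 98.2 and 103 CPM in shMORC2 and changed by 0.95 ± 0.09 (SE, adjusted p = 3.84e-06). NDUFB6, another membrane arm subunit, was measured at 13, 9.88 and 12.8 CPM in shCtrl and 22.1, 21.2 and 24 CPM in shMORC2 and changed by 0.92 ± 0.11 (SE, adjusted p = 4.11e-05). For these genes the groups did not overlap, and the spread within a group was small beside the distance between groups.

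Most of the other accessory subunits followed at smaller size. All 11 tested NDUFB genes had log2 fold changes above 0 and 10 rose, the exception being NDUFB11 at 0.063. Of the 13 NDUFA genes, 10 rose, and NDUFA13, NDUFA4, NDUFA3 and NDUFA8 had log2 fold changes of 0.91, 0.84, 0.71 and 0.66. NDUFA4 carries a complex I name but is now regarded as a subunit of complex IV. NDUFS5 and NDUFS6, accessory subunits despite their names, rose by 0.67 and 0.67. NDUFS5 was the most abundant member per length in the controls, at a mean of 414 RPKM (the authors' reads scaled by exon length and library total) in shCtrl and 654 RPKM in shMORC2. NDUFC1 rose by 0.83 at a mean of 130 counts per library, the lowest in complex I.

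NDUFA9, an accessory subunit that binds a nucleotide cofactor near the matrix arm, was the only complex I member that fell in the fit on group alone. It was measured at 47.8, 48.4 and 47.3 CPM in shCtrl and 36.9, 37.3 and 39.8 CPM in shMORC2, so that each shMORC2 library lay below each control, and changed by -0.33 ± 0.07 (SE, adjusted p = 0.00323). With the replicate block NDUFS7 and NDUFV1 fell as well, at adjusted p = 0.00799 and 0.00859. With the mRNA length trend removed, edgeR did not call NDUFA9 (-0.19, adjusted p = 0.0640). In that fit NDUFS7 and NDUFV1 were called lower (-0.41 and -0.26, adjusted p = 0.00315 and 0.0145).

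The core subunits of the matrix arm differed from each other. NDUFV1, which binds the flavin and NADH, was measured at 160.5, 169.6 and 169.6 CPM in shCtrl and 132, 149.9 and 158 CPM in shMORC2 with a log2 fold change of -0.18 ± 0.08 (SE, adjusted p = 0.0878). NDUFS1, the large iron-sulfur subunit, was measured at 154, 151 and 147 CPM in shCtrl and 146, 156 and 158 CPM in shMORC2 with 0.024 ± 0.07 (SE, adjusted p = 0.811). The groups of NDUFS1 overlapped, while those of NDUFV1 did not, with every shMORC2 library below every control. NDUFS3 was measured at 96.7, 86.5 and 99.2 CPM in shCtrl and 91.7, 88.5 and 101 CPM in shMORC2 with -0.0029 ± 0.08 (SE, adjusted p = 0.982). The groups of NDUFS3 also overlapped. NDUFS7, which carries the last cluster before ubiquinone, was measured at 62.3, 60.5 and 68.6 CPM in shCtrl and 47.5, 56 and 62.1 CPM in shMORC2 with -0.21 ± 0.10 (SE, adjusted p = 0.106).

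NDUFV2 and NDUFS8 were the core members that rose in the fit on group alone. With the coding length trend removed neither was called, at 0.19 (adjusted p = 0.0542) and 0.13 (adjusted p = 0.218). In that fit NDUFS7 was called lower (-0.33, adjusted p = 0.0104). With the mRNA length trend removed neither NDUFV2 nor NDUFS8 was called. NDUFV2, which carries an iron-sulfur cluster beside the flavin subunit, was measured at 59.8, 53.6 and 58 CPM in shCtrl and 69.8, 67 and 69.9 CPM in shMORC2 and changed by 0.27 ± 0.07 (SE, adjusted p = 0.0116). NDUFS8, another iron-sulfur subunit, was measured at 33.1, 34.2 and 38 CPM in shCtrl and 37.9, 42.7 and 45 CPM in shMORC2 and changed by 0.26 ± 0.09 (SE, adjusted p = 0.0360). The groups of NDUFS8 touched, since shCtrl replicate 3 lay above shMORC2 replicate 1. The NDUFV2 call was lost without shCtrl replicate 2 (log2 fold change 0.22, adjusted p = 0.0572), and the NDUFS8 call without any of shCtrl replicates 1 and 2 and shMORC2 replicates 2 and 3 (0.20 to 0.24, adjusted p = 0.104 to 0.147). Together the core genes summed to 698 ± 15.8 CPM in the shCtrl libraries against 699 ± 44.2 CPM in the shMORC2 libraries (SD, n = 3), and the accessory genes to 1524 ± 97.3 and 2112 ± 87.0 CPM.

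**Figure D2:**
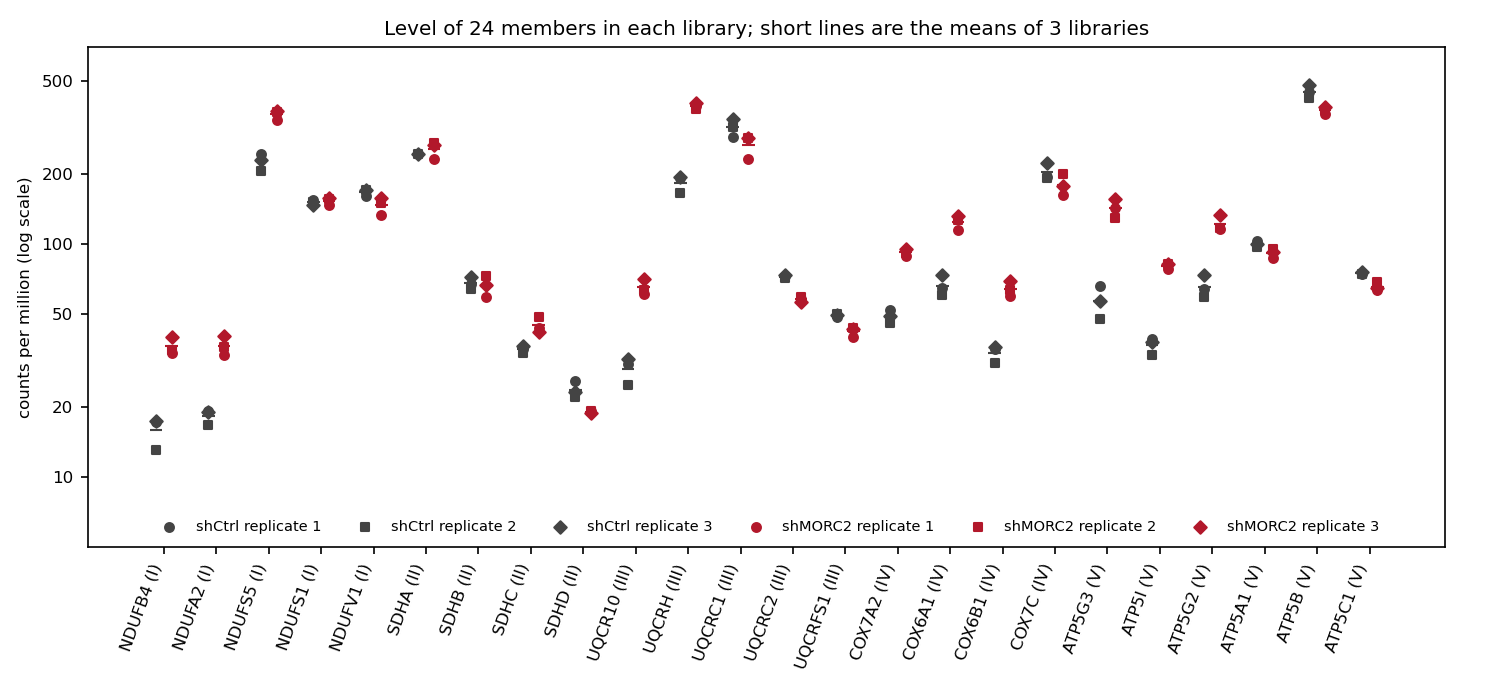
Levels in CPM on a log scale are shown for 24 members in each of the 3 shCtrl libraries (grey) and 3 shMORC2 libraries (red), with the mean of each group as a short line and the complex in brackets. NDUFB4, UQCRH, COX7A2 and ATP5G3 separate upwards, NDUFS1, SDHA and SDHB overlap, and UQCRC2 and ATP5B separate downwards.

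Complex II, succinate dehydrogenase, is shared with the citric acid cycle and is built of nuclear subunits alone. It changed least in sum, from 370.0 ± 6.02 CPM in shCtrl to 386 ± 30.6 CPM in shMORC2 (SD, n = 3). SDHA, the flavoprotein that oxidises succinate, was measured at 242, 244 and 244 CPM in shCtrl and 231, 272 and 266 CPM in shMORC2 with a log2 fold change of 0.074 ± 0.08 (SE, adjusted p = 0.483). SDHB, the iron-sulfur subunit, was measured at 67.3, 63.9 and 72 CPM in shCtrl and 59, 72.9 and 66.7 CPM in shMORC2 with -0.034 ± 0.09 (SE, adjusted p = 0.788). The catalytic pair overlapped between the groups. The pseudogenes of SDHA held a further 18.3% of its mean count, the largest such share among the 43 tested members with a named pseudogene, whose median was 0.0780%. The SDHA pseudogenes together had a mean of 2310 counts per library in shCtrl and 1586 in shMORC2. Their part in the SDHA value was not tested.

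The membrane anchors of complex II moved in opposite directions. SDHC was measured at 35.5, 34 and 36.4 CPM in shCtrl and 43.5, 48.4 and 42 CPM in shMORC2 and rose by 0.34 ± 0.08 (SE, adjusted p = 0.00514). SDHD was measured at 25.8, 22.1 and 23 CPM in shCtrl and 19.2, 19.2 and 18.7 CPM in shMORC2 and changed by -0.31 ± 0.09 (SE, adjusted p = 0.0133). Neither overlapped between the groups. The SDHC call was lost with the coding length trend removed (0.18, adjusted p = 0.0929). The SDHD call was lost without shCtrl replicate 1 (-0.24, adjusted p = 0.0589) and without shMORC2 replicate 3 (-0.29, adjusted p = 0.0519), and 12.7% of its exon bases overlap another gene on the same strand.

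In complex III the 5 small subunits rose and the core proteins and the iron-sulfur protein lay below the controls. With the coding length trend removed, UQCRQ was 0.035 (adjusted p = 0.730) and UQCRB -0.013 (adjusted p = 0.912), neither was called, and the median of the complex went from 0.35 to 0.011. All 8 members were tested, 5 rose, 2 fell and 1 did not pass, and in none did the libraries of the groups overlap. UQCR10 (chr22:29767369-29770413), a small transmembrane subunit, was measured at 30.5, 24.8 and 32.2 CPM in shCtrl and 60.9, 63.6 and 70.7 CPM in shMORC2 and changed by 1.16 ± 0.10 (SE, adjusted p = 2.72e-06). UQCRH, the hinge protein that helps cytochrome c dock, was measured at 192, 165 and 193 CPM in shCtrl and 392, 378 and 402 CPM in shMORC2 and changed by 1.09 ± 0.08 (SE, adjusted p = 8.46e-07). In each shMORC2 library both were more than 2-fold the control mean. UQCR11 was measured at 48.9, 40.9 and 46.9 CPM in shCtrl and 76.5, 77.7 and 84.1 CPM in shMORC2 and changed by 0.80 ± 0.08 (SE, adjusted p = 1.34e-05). UQCRQ, a ubiquinone-binding subunit, was measured at 98.5, 89.9 and 103 CPM in shCtrl and 117, 134 and 138 CPM in shMORC2 and changed by 0.42 ± 0.08 (SE, adjusted p = 0.00170). UQCRB rose by 0.28, a call that was lost without shCtrl replicate 2 (0.24, adjusted p = 0.0592) and without shMORC2 replicate 2 (0.22, adjusted p = 0.0819).

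The larger subunits of complex III went the other way. UQCRC2, a core protein related to processing peptidases, was measured at 72.6, 71.2 and 73.2 CPM in shCtrl and 57.8, 59.4 and 56.5 CPM in shMORC2 and changed by -0.32 ± 0.07 (SE, adjusted p = 0.00295). Its groups were far apart beside their spread. UQCRFS1, the Rieske iron-sulfur protein that takes electrons from ubiquinol, was measured at 48.5, 49.7 and 49.5 CPM in shCtrl and 39.9, 43.4 and 43 CPM in shMORC2 and changed by -0.23 ± 0.07 (SE, adjusted p = 0.0275), and this call was lost without any of shCtrl replicates 2 and 3 and the 3 shMORC2 libraries (-0.25 to -0.19, adjusted p = 0.0555 to 0.0864). UQCRC1, the other core protein, was measured at 288, 317 and 345 CPM in shCtrl and 231, 284 and 284 CPM in shMORC2 with -0.25 ± 0.10 (SE, adjusted p = 0.0519). Its lowest control lay just above its highest shMORC2 library, and it was called lower with the replicate block (adjusted p = 0.000364) and without shCtrl replicate 1 (-0.32, adjusted p = 0.0179). Summed over complex III, the level was 935 ± 52.3 CPM in the shCtrl libraries against 1204 ± 54.9 CPM in the shMORC2 libraries (SD, n = 3).

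The catalytic core of complex IV is encoded in mitochondrial DNA, so that its nuclear members are the smaller regulatory and structural subunits. Of 14 members 10 were tested and 9 rose, with a median log2 fold change of 0.69. With the coding length trend removed 6 rose and COX7C fell, with a median of 0.37, and the calls of COX5B, COX6C and COX6B2 were lost. COX7A2 (chr6:75237675-75250323) was measured at 51.8, 45.7 and 48.9 CPM in shCtrl and 88.6, 91.8 and 95.5 CPM in shMORC2 and changed by 0.91 ± 0.08 (SE, adjusted p = 2.22e-06). COX6B1, which faces the intermembrane space, was measured at 35.4, 30.8 and 36.1 CPM in shCtrl and 59.5, 63.4 and 69.6 CPM in shMORC2 and changed by 0.91 ± 0.09 (SE, adjusted p = 6.87e-06). COX6A1 was measured at 64.9, 60.5 and 73.3 CPM in shCtrl and 114, 127 and 131 CPM in shMORC2 and changed by 0.91 ± 0.09 (SE, adjusted p = 6.71e-06). These genes rose by nearly the same factor, between 1.87 and 1.89. COX7B was measured at 93.1, 75.5 and 96 CPM in shCtrl and 143, 153 and 146 CPM in shMORC2 and changed by 0.74 ± 0.09 (SE, adjusted p = 4.53e-05).

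Among the other complex IV members, COX8A, COX5A, COX6C and COX5B rose by 0.64, 0.59, 0.41 and 0.31. COX7C was the exception, at 194, 192 and 223 CPM in shCtrl and 163, 199 and 177 CPM in shMORC2 with a log2 fold change of -0.18 ± 0.09 (SE, adjusted p = 0.138), where the groups overlapped; with the replicate block it fell (adjusted p = 0.0202). The COX5B call was lost without shMORC2 replicate 3 (0.26, adjusted p = 0.0516). The summed level of complex IV was 749 ± 57.5 CPM in the shCtrl libraries against 1024 ± 65.7 CPM in the shMORC2 libraries (SD, n = 3), a ratio of 1.37, the largest of the 5 complexes.

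Several complex IV subunits have tissue-specific paralogs, which are the forms of muscle or testis, and these stayed at or near 0 counts. COX6A2 had 2 counts in shCtrl replicate 1 and none elsewhere, COX7A1 had at most 4 counts per library, COX8C at most 2 and COX7B2 at most 1. A count of 0 allows up to 3 counts at this depth, so no difference was detectable for these genes, and they were not tested. COX6B2, the testis form of COX6B1, had 11, 16 and 19 counts in shCtrl and 22, 58 and 30 in shMORC2. Its log2 fold change was 1.24 ± 0.42 (SE, adjusted p = 0.0318), but 30.9% of its exon bases overlap another gene on the same strand, and without shMORC2 replicate 2 it was 0.72 (adjusted p = 0.220). That call was also lost without shCtrl replicate 1 (1.03, adjusted p = 0.0903), without shCtrl replicate 2 (1.27, adjusted p = 0.0809) and without shMORC2 replicate 3 (1.37, adjusted p = 0.0538). COX6B1 took 98.9% ± 0.310 of the counts of the pair in shCtrl and 98.7% ± 0.719 in shMORC2 (SD, n = 3).

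Complex V consists of a catalytic F1 head, a rotating ring of c subunits in the membrane, a peripheral stalk that holds the head and small membrane subunits. Of 17 members 16 were tested, 9 rose, 2 fell and 5 did not pass the test. With the coding length trend removed 6 rose and 4 fell, ATP5J, ATP5L and ATP5O were no longer called, and the median went from 0.25 to 0.035. The same counts were found with the mRNA length trend removed, with a median of 0.068. The summed level was 1362 ± 82.9 CPM in the shCtrl libraries against 1600.5 ± 62.8 CPM in the shMORC2 libraries (SD, n = 3).

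The c ring is encoded by 3 genes, ATP5G1, ATP5G2 and ATP5G3, whose mature proteins are the same and whose import sequences differ. All rose. ATP5G3 (chr2:175176258-175184607), which had the largest log2 fold change of the 75 tested members, was measured at 66.2, 47.7 and 56.9 CPM in shCtrl and 142, 129 and 156 CPM in shMORC2 and changed by 1.32 ± 0.11 (SE, adjusted p = 2.22e-06). ATP5G2 was measured at 64.2, 59 and 73.2 CPM in shCtrl and 116, 117 and 133 CPM in shMORC2 and changed by 0.90 ± 0.09 (SE, adjusted p = 1.1e-05). ATP5G1 was measured at 8.74, 6.34 and 8.66 CPM in shCtrl and 12.9, 15.2 and 13.4 CPM in shMORC2 and changed by 0.80 ± 0.13 (SE, adjusted p = 0.000375). ATP5G3 moved further than the others, and its share of the counts of the 3 genes was 43.6% ± 3.50 in shCtrl and 51.2% ± 1.57 in shMORC2 (SD, n = 3). The share of ATP5G2 was 50.4% ± 3.67 and 43.8% ± 1.01, and that of ATP5G1 was 6.04% ± 0.377 and 5.00% ± 0.741. The shares of ATP5G3 and ATP5G2 crossed between the groups in mean but not in every library. In shCtrl replicate 1 ATP5G3 already lay above ATP5G2, at 47.6% and 46.1%. Together the 3 genes summed to 130.3 ± 15 CPM in the shCtrl libraries against 278 ± 22.2 CPM in the shMORC2 libraries.

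The small membrane subunits also rose. ATP5I, subunit e, was measured at 39.1, 33.4 and 38 CPM in shCtrl and 78, 81.6 and 82.3 CPM in shMORC2 and changed by 1.13 ± 0.08 (SE, adjusted p = 7.34e-07), with 61.6% of its exon bases overlapping a gene on the opposite strand. ATP5J2, subunit f, was measured at 44.4, 30.7 and 40.9 CPM in shCtrl and 75, 75.7 and 83.5 CPM in shMORC2 and changed by 1.01 ± 0.12 (SE, adjusted p = 2.33e-05). Neither overlapped between the groups. ATP5L, subunit g, rose by 0.23 (adjusted p = 0.0486), with overlapping groups and no call without any of shCtrl replicates 1 and 2 and shMORC2 replicates 2 and 3 (0.18 to 0.21, adjusted p = 0.138 to 0.170). ATP5L2, a copy of ATP5L, had 0 counts in each shCtrl library and 2, 8 and 2 in shMORC2, and was not tested.

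In the F1 head ATP5B and ATP5C1 fell and ATP5E rose. ATP5B (chr12:56638175-56646068), the catalytic beta subunit, was measured at 447, 425 and 481 CPM in shCtrl and 359.6, 375 and 388 CPM in shMORC2 and changed by -0.27 ± 0.08 (SE, adjusted p = 0.0126). It had the highest CPM of all members in each shCtrl library, while UQCRH lay above it in each shMORC2 library. The groups did not overlap, and the call was lost without shCtrl replicate 3 (-0.22, adjusted p = 0.0821). ATP5A1, the alpha subunit, was measured at 103, 97.4 and 100.1 CPM in shCtrl and 86.9, 94.8 and 91.9 CPM in shMORC2 with -0.14 ± 0.07 (SE, adjusted p = 0.157). ATP5C1, the gamma subunit of the rotor, was measured at 74.6, 74 and 76.1 CPM in shCtrl and 63.4, 68.7 and 64.5 CPM in shMORC2 and changed by -0.19 ± 0.07 (SE, adjusted p = 0.0478), a call that was lost whichever library was left out (-0.23 to -0.17, adjusted p = 0.0654 to 0.154). ATP5D had a log2 fold change of -0.15, and ATP5E, the smallest F1 subunit, rose by 0.75. In the peripheral stalk ATP5J and ATP5O rose by 0.41 and 0.27, the latter not without shCtrl replicate 2 (0.25, adjusted p = 0.0597) or shMORC2 replicate 2 (0.22, adjusted p = 0.0888). ATP5F1 and ATP5H had log2 fold changes of 0.036 and -0.13. ATP5S, which matches the rule by name but is not a structural subunit, had -0.14.

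A property that the rule did not use ran with the direction of change, namely the length of the coding sequence. Among members with a coding length up to 300 bases 19 of 21 rose, and among those above 300 and up to 450 bases 21 of 22 rose, none fell in either class, and the medians were 0.80 and 0.54. Among members above 450 and up to 600 bases 6 of 12 rose and 1 fell, against 35.6% and 11.6% of other tested protein-coding genes. Above 600 and up to 900 bases 3 of 9 members rose and 2 fell, with a median of -0.0029. Of the other genes in that class 27.7% rose and 15.9% fell. Above 900 bases 1 of 11 rose, NDUFV3, and 3 fell (27.3%), NDUFA9, UQCRC2 and ATP5B. Among other tested protein-coding genes 21.8% rose and 20.7% fell above 900 and up to 1500 bases. Of those above 1500 bases 15.2% rose and 28.6% fell. The share of long members that fell was thus near that of other long genes. Across the 75 members Spearman's rho between coding length and log2 fold change was -0.66 and Pearson's r with log2 of the length was -0.65. Within complex I (37 genes) rho was -0.63. These points share the 6 libraries and are not independent, so no p is given.

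**Figure D3:**
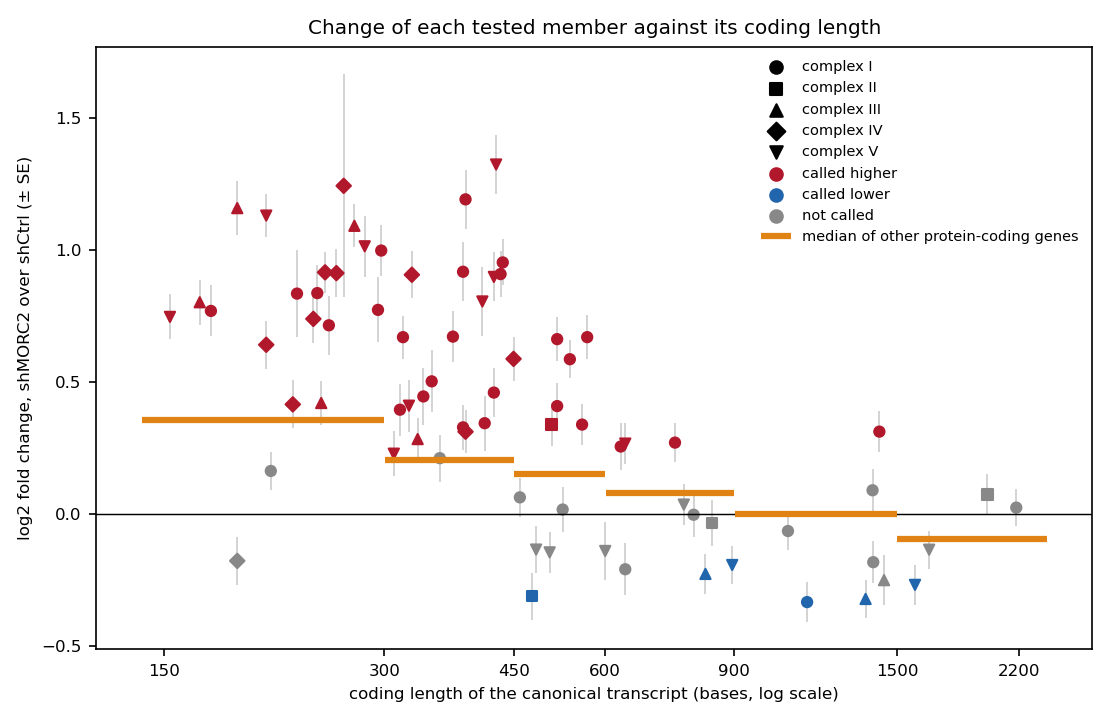
Each tested member is placed by the coding length of its canonical transcript in bases (log scale) and its log2 fold change, shMORC2 over shCtrl, with the standard error as a bar, a marker for its complex and a colour for its call. Orange lines give the median of the other tested protein-coding genes in 6 length classes. Those medians go from 0.36 up to 300 bases to -0.10 above 1500 bases, and most short members lie above them.

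The same trend was seen at smaller size in other genes. Among the tested protein-coding genes outside the 80, the median log2 fold change was 0.36 up to 300 bases (281 genes, 53.7% higher), 0.20 from there up to 450 bases (630 genes, 38.3% higher), 0.15 up to 600 bases, 0.08 up to 900 bases, -0.0011 up to 1500 bases and -0.10 above 1500 bases. With the trend of mRNA length removed 37 members rose and 11 fell, with a median of 0.22, against 19.5% and 18.7% of all genes in that fit. All of those 37 and of the 33 that rose with the coding length trend removed were among the 50 that rose without the correction. After removal of the coding length trend, Spearman's rho between coding length and log2 fold change was still -0.42 in the 75 members and -0.34 in complex I. It was 0.03 in the other tested protein-coding genes. The part of transcript length in the result was not tested beyond these fits. With the coding length trend removed, NDUFB4, UQCRH, COX7A2, ATP5G3 and ATP5I still rose, by 0.96, 0.74, 0.53, 1.12 and 0.69. UQCRB and ATP5L turned to -0.013 and -0.090 in that fit and were not called, and NDUFA1 turned to -0.27 and was called lower.

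The counting could also touch single members, since 17 tested members share over 20% of their exon bases with another gene on either strand and 43 have pseudogenes by name. Of the 38 tested members with under 5% shared exon bases, 25 rose and 3 fell, with a median of 0.38. Of the 32 without a named pseudogene, 19 rose and none fell, with a median of 0.32. The 13 members with neither had 6 that rose and none that fell, a median of 0.09 and a median coding length of 630.0 bases, against 423 bases over the 75 members.

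The nuclear members were set beside other gene lists of mitochondrial and sugar metabolism. The 13 protein-coding genes of mitochondrial DNA had a median log2 fold change of 0.01. Of these 4 rose and 2 fell, against 19.9% and 19.6% of all genes tested. With the replicate block 5 rose and 4 fell, against 24.4% and 24.5%. MT-ND4L and MT-ND4 overlap in position, as do MT-ATP8 and MT-ATP6, so the 13 genes are not 13 separate measurements. MT-ND1, a complex I core subunit, was measured at 3134, 2903 and 3445 CPM in shCtrl and 7570, 6397 and 6351 CPM in shMORC2 and changed by 1.10 ± 0.10 (SE, adjusted p = 3.04e-06). MT-ND3 rose by 0.76, MT-ND4L fell at -0.40 and MT-CO1, the catalytic subunit of complex IV, at -0.29. The 13 genes summed to between 55768 and 64664 CPM in shCtrl and between 57406 and 70718 CPM in shMORC2, ranges that overlap.

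Subunits and carriers that the rule left out followed the members in part. Of 8 tested, 4 rose and 1 fell, against 19.9% and 19.6% of all genes tested. ATPIF1, the inhibitor of ATP synthase hydrolysis, rose by 0.81 ± 0.08 (SE, adjusted p = 1.01e-05), and USMG5, a small ATP synthase subunit, by 0.75 ± 0.10 (SE, adjusted p = 8.57e-05). CYC1, the cytochrome c1 of complex III, had a log2 fold change of -0.26 and fell, in the same direction as UQCRC2 and UQCRFS1. COX4I1, a complex IV subunit, and C14orf2, a small ATP synthase subunit, were the others that rose. Over the 20 alternative fits the COX4I1 call held in 15 and the C14orf2 call in 18. Their lowest log2 fold changes there were 0.12 and 0.044. The CYC1 call held in 17, and those of ATPIF1 and USMG5 held in all 20. Without shMORC2 replicate 2, 3 genes of this list passed the test.

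Of 48 assembly factors tested, 14 rose (29.2%) and 10 fell (20.8%), with a median of 0.05, against 19.9% and 19.6% of all genes. PET100, a complex IV assembly factor, rose by 1.12 ± 0.09 (SE, adjusted p = 1.23e-06) at 26, 22.6 and 23.4 CPM in shCtrl and 48.4, 54.6 and 53.1 CPM in shMORC2. TTC19, an assembly factor of complex III, changed by -0.999 ± 0.08 (SE, adjusted p = 1.31e-06) at 97.9, 88.1 and 94.1 CPM in shCtrl and 47.7, 48.5 and 43.9 CPM in shMORC2. Among the 17 citric acid cycle genes 2 rose and 3 fell, with a median of -0.05, and SUCLA2 at -0.62 and PDHB at 0.36 had the largest changes. Of the 17 glycolysis genes 6 rose and 3 fell, with a median of 0.10, led by PGK1 at 0.71 and ENO2 at 0.60.

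None of the regulators of mitochondrial biogenesis rose. Of 12 tested, 8 fell, against 19.6% of all genes tested. The median was -0.32, opposite in sign to that of the members. The median coding length of the list was 1315.5 bases, against 423 bases over the 75 members, and the part of length in this difference was not tested. PPARGC1B, a transcriptional coactivator of respiratory genes, was measured at 11.8, 10.8 and 9.77 CPM in shCtrl and 6.61, 5.26 and 5.19 CPM in shMORC2 and changed by -0.92 ± 0.13 (SE, adjusted p = 0.000115). ESRRA, the oestrogen-related receptor alpha, was measured at 57.4, 72.5 and 69.3 CPM in shCtrl and 38.3, 41.9 and 42.2 CPM in shMORC2 and changed by -0.70 ± 0.09 (SE, adjusted p = 7.94e-05). Their groups did not overlap. PPARGC1A and NRF1 did not pass the test, at -0.066 and 0.0094. GABPB1 passed narrowly (adjusted p = 0.04999) and without shMORC2 replicate 3 the list had 5 that passed.

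**Figure D4:**
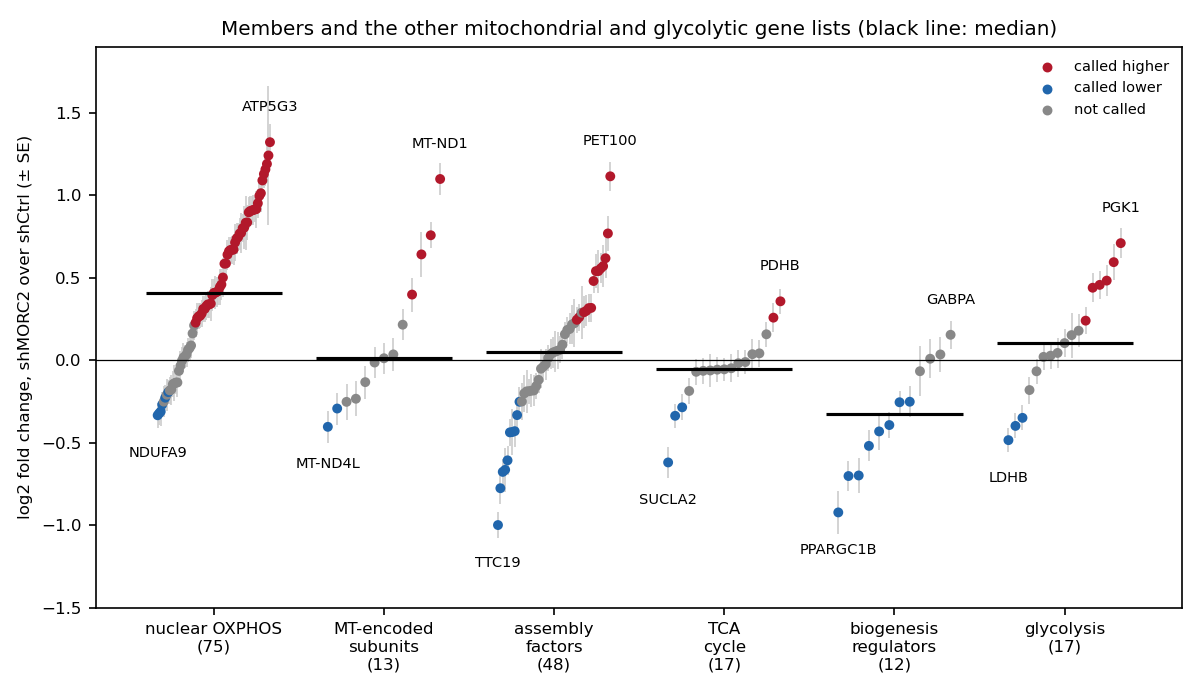
Log2 fold changes, shMORC2 over shCtrl, are plotted in rising order with standard errors for the 75 nuclear members, 13 mitochondrially encoded subunits, 48 assembly factors, 17 citric acid cycle genes, 12 biogenesis regulators and 17 glycolysis genes. Black lines mark the medians, which are 0.41, 0.01, 0.05, -0.05, -0.32 and 0.10, and the lowest and highest gene of each list is named.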

How the data were processed

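Stranded mRNA libraries with unique identifiers were made from 3 shCtrl and 3 shMORC2 samples of SW480. Per the labels, the submitters' processing notes name Trimmomatic 0.36, STAR 2.5.3a, featureCounts of Subread 1.5.1, edgeR 3.12.1 and GRCh38; parameters, and how identifiers and multi-mapped reads were treated, are not given in the sources used here. The authors deposited raw counts per gene and RPKM values, which are those counts divided by merged exon length and library total. The authors also deposited splicing events with inclusion levels as fractions for groups named by number; their columns of p-values, adjusted p-values and differences were not used.

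Counts were filtered with filterByExpr, scaled by TMM and tested with the quasi-likelihood test of edgeR 4.0.16 (R 4.3.3) on group alone, with Benjamini-Hochberg adjustment over the 21005 genes tested and a threshold of 0.05. The standard error is the log2 fold change divided by the root of F. Each library held at least 42092664 counts in total. The counting error of single members was not compared with the spread between libraries, and members with few counts, such as COX6B2, carry more of it. The labels do not say whether replicates were separate cultures, so p-values measure the spread between these samples. Replicate numbers occur in both groups, and same-numbered libraries deviated together (correlations 0.215, 0.111 and 0.102), while the labels do not say what the number stands for, so a fit with the replicate number as a block was run as an alternative.

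The members and lists were chosen with earlier results of these data known. Per-library values were given for MORC2, the 4 largest called changes in each complex among members with a mean of at least 100 counts, the paralogs and the core catalytic subunits, and companion lists by their 2 largest called changes; other genes named beyond these were chosen after their values were seen. Gene symbols of the files were matched to GENCODE v44 for coding length (80 of 80 members, canonical transcript). Alternatives were DESeq2 1.42.0, limma 3.58.1 on log2(RPKM + 1) and log2(RPKM + 0.1), other filters and scalings, removal of length trends, and leaving out each library; the trends with mRNA and coding length were added after seeing the data. No column belonged to a sample outside the series. The values of 1 member are not reported here, though it is kept in the counts, medians and sums.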

Additional observations from a re-analysis of the deposited data

How the results depend on the processing

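MORC2 stayed lower and past the threshold in the 20 alternatives. Leaving out a library put MORC2 between -0.74 and -0.55 on the log2 scale. The genes called over all genes numbered 8301 and fell to 5454 with limma on log2(RPKM + 1) without a filter, which also left 0 calls in complex II and 2 in the mitochondrial list and a median of 0.60 in complex IV. Members called higher numbered 50 and fell to 33 with the coding length trend removed. Members called lower numbered 6, and 10 with the replicate block, 11 with the exon length trend removed with the replicate block, 11 with the mRNA length trend removed, 11 with the coding length trend removed, and 14 with that and the replicate block. Beside this and the calls given in the report, the block changed no other call of a member. With the mRNA length trend removed the medians were 0.22 over all members, 0.22 in complex I, -0.065 in complex II, 0.56 in complex IV and 0.068 in complex V. With the coding length trend removed they were 0.18, 0.23 in complex I, 0.011 in complex III, 0.37 in complex IV and 0.035 in complex V, with 1 call in complex II. With the replicate block added they were 0.17, 0.23, 0.0094, 0.38 and 0.037. These trends were added after seeing the data, and the cause was not tested. When each library was left out in turn, 43 to 51 members were higher and 3 to 5 lower, and the medians ran from 0.33 to 0.46 over all members, from -0.039 to 0.095 in complex II and from 0.60 to 0.76 in complex IV, with 1 to 2 calls in complex II. The calls ran from 3 to 5 in the list outside the rule and from 5 to 8 among the regulators.

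Of the single members, 3 that were called turned sign in some alternative (ATP5L, COX6C and UQCRB). With the coding length trend removed the reversed values were ATP5F1 -0.039, ATP5L -0.090, NDUFA1 -0.27, NDUFB11 -0.12, NDUFC2 -0.059, NDUFS4 -0.14 and UQCRB -0.013, and with the replicate block as well ATP5F1 -0.036, ATP5L -0.089, COX6C -0.0027, NDUFA1 -0.27, NDUFB11 -0.12, NDUFC2 -0.058, NDUFS4 -0.14 and UQCRB -0.015. With the exon length trend removed they were NDUFA10 0.034, NDUFB11 -0.025 and NDUFS4 -0.071, with the replicate block as well 0.033, -0.027 and -0.070, and with the mRNA length trend removed NDUFA1 -0.061, NDUFB11 -0.17 and NDUFS4 -0.19. NDUFS3 was 0.0042 with a filter of 1 CPM in 3 libraries. Leaving out a library gave NDUFS3 from -0.062 to 0.039, NDUFS4 from -0.056 to 0.066 and SDHB from -0.11 to 0.045.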

Other observations

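Ribosomal protein genes, which are short and highly expressed like many of the members, were looked at after the results above were seen. Of 79 tested cytosolic ribosomal protein genes 25 rose and 10 fell (33 and 16 with the replicate block), with a median log2 fold change of 0.09 and a median coding length of 453 bases. Of 75 tested mitochondrial ribosomal protein genes, whose products translate the mitochondrially encoded subunits, 24 rose and 6 fell (28 and 15 with the replicate block), with a median of 0.06 and a median coding length of 582 bases. The 75 tested members had a median of 0.41 and a median coding length of 423 bases. Background shares were 19.9% higher and 19.6% lower, and 24.4% and 24.5% with the block.

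The splicing table listed 1 event in a member, a pair of exons of ATP5G2 described as mutually exclusive, at chr12:53669148-53669341 (194 bases) and chr12:53669871-53669948 (78 bases) on the minus strand of GRCh38. Inclusion levels were 0.780, 0.729 and 0.773 in the libraries of one group and 0.634, 0.580 and 0.642 in the other. The groups did not overlap, but the table names them by number, so that no direction with the knockdown can be given. The p-values of the table were not used.

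ECSIT and SCO1, assembly factors of complexes I and IV, fell at -0.78 ± 0.09 and -0.68 ± 0.08 (SE).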
